A study of Mus musculus with 27 samples.

Results

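The genes Cd34, Flt3 and Cd27, which encode surface proteins, and Hlf, Prdm16 and Bcl11a, which encode transcription factors, were followed across 27 RNA libraries of mouse acute myeloid leukemia (AML) and of normal granulocyte-macrophage progenitors (GMPs). They are 6 of the 5486 genes in the deposited table and were taken by name. Earlier results of these libraries, including AML against GMPs and one leukemia against the others, were known when they were picked, so their values in those comparisons are descriptions and carry no test. The AML cells descended from GMPs of mT/mG mice on a C57BL/6 background that were transduced with an MLL-AF9-GFP retrovirus. Primary blasts of 3 leukemic donors (batch 1 and batch 3 from bone marrow, batch 19 from spleen) were passed to further recipients, and live GFP+mTomato+ cells were sorted at full infiltration. In each batch, 3 libraries came from endosteal cells (crushed metaphysis) and 3 from central cells (flushed diaphysis), which gives 18 AML libraries. The 9 control libraries were GMPs from whole marrow of wild-type mice matched for age and sex, which the column names divide into sets A, B and C, each with 3 libraries. The labels of set A differ in the last of the 3 mice they name, while its columns all name the same 3. Mice of both sexes older than 6 weeks were used, and the age at sorting was not given in the sources used here.

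Each batch is the leukemia of 1 donor, so a difference between batches is a difference between 3 leukemias, and the donor cannot be told apart from the organ its cells were taken from. Region cannot be told apart from the way the cells were released from the bone. The study counts 9 mice as controls and, in each AML batch, 3 biological replicates, while each GMP label names 3 mice. Endosteal and central libraries of a batch thus probably share mice, but the labels tie columns to groups and not to mice, so mouse was no term of any fit and p-values measure the spread between libraries. GMPs are usually sorted on CD34, so the Cd34 level of the controls may be partly set by their sort. Libraries are named below by the number that starts their column.

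All 6 genes have textbook roles early in blood formation. CD34 is a sialomucin on the surface of stem and progenitor cells, FLT3 is a class III receptor tyrosine kinase that drives the expansion of multipotent and lymphoid-primed progenitors, and CD27 is a receptor of the TNF receptor family, bound by CD70, on multipotent progenitors and lymphocytes. HLF is a PAR bZIP factor that marks hematopoietic stem cells, PRDM16 is a zinc finger factor with a PR domain that maintains them, and BCL11A is a zinc finger repressor that silences fetal globin genes and is needed for B cells.

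Every level below is a read count scaled to a library of 1000000 reads (CPM) from 3′ end sequencing, which does not scale with transcript length. Whole reads could be recovered from the CPM values of 24 libraries, in which AML libraries held 6.94 to 13.4 M reads and GMP libraries 5.595 to 10.7 M. The leukemia list, led by Mef2c, Pbx3 and Hoxa7, summed to 560 to 958 CPM in AML other than library 18 (1777 CPM) and to 152 to 259 CPM in GMPs. The GMP list, led by Mpo, Prtn3 and Elane, summed to 1439 to 6171 and 11632 to 26686 CPM. The 2 lists thus separated the labelled groups in all 27 libraries. Mef2c itself was lower in batches 3 and 19 (68.6 and 12.97 CPM) than in GMPs (115 CPM). In batch 1 it was at 322 ± 366 CPM, with 1065 CPM in library 18. A pair of libraries stood apart. Library 9 of GMP set A had 747 genes at 0, against at most 505 in the other GMP libraries, and its erythroid genes summed to 150 CPM, against 23.03 to 106. Most of that erythroid sum was a single gene, Tfrc, at 137 CPM. Library 18 of endosteal batch 1 had megakaryocyte genes at 117 CPM, against 9.84 to 21.8 in the rest of batch 1. Most of that sum was Gp1bb, at 112 CPM, while the other genes of the list reached at most 7.86 CPM in any AML library. Means and differences of the 6 genes, and counts, that move most with either library are also given without it.

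In mm10, Cd34 (ENSMUSG00000016494.9) lies on chromosome 1 from 194938819 to 194961279, Flt3 (ENSMUSG00000042817.15) on chromosome 5 from 147330741 to 147400489 and Cd27 (ENSMUSG00000030336.14) on chromosome 6 from 125232622 to 125237010. Hlf (ENSMUSG00000003949.16) and Bcl11a (ENSMUSG00000000861.15) are both on chromosome 11, from 90336536 to 90390895 and from 24078056 to 24174123, and Prdm16 (ENSMUSG00000039410.16) is on chromosome 4 from 154316125 to 154636873. All but Hlf overlap an annotated gene on the opposite strand (Vamp1 for Cd27, otherwise Gm or Rik models). Whether reads were counted by strand is not given in the sources used here, and without strand the reads of such partners cannot be told apart.

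Cd27, Bcl11a and Hlf were the members whose AML libraries all lay below all GMP libraries. The 150 bases before a RefSeq start site of each (GRCm38.p6) are shown because these genes moved together between the groups, with each GC box (GGGCGG on either strand) in capitals. The start listed first for a gene was used, and the Bcl11a window lies inside the gene span given above.
Cd27, chr6:125237028-125237177, minus strand: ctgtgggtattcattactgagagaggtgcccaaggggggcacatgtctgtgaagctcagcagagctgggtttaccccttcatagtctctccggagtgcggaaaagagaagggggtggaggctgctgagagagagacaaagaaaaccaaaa
Bcl11a, chr11:24080545-24080694, plus strand: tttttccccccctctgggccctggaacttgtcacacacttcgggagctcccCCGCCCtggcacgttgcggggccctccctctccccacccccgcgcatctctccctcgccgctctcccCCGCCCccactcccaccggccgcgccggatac
Hlf, chr11:90390918-90391067, minus strand: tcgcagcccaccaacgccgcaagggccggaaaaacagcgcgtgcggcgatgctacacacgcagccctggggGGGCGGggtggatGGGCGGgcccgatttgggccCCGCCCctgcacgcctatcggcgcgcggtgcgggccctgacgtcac
Hlf held 3 GC boxes and Bcl11a 2, while Cd27 held none, and 28.6% of 32851 promoter windows of the same length held at least 1. The GC content was 74% for Hlf, 72.7% for Bcl11a and 52.7% for Cd27, against a median of 54% over all windows. The RUNX core TGTGGT was in none of the 6 windows on either strand and in 8.40% of all windows. The same held for the core of GATA factors, AGATAA (5.65% of all windows), and for the MEIS core TGACAG (9.67%). Cd34 and Flt3 each held 1 ETS core GGAAG, which 47.7% of windows had. No searched motif was in all 3 of the promoters shown. These matches describe letters in the windows only.

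**Figure D1:**
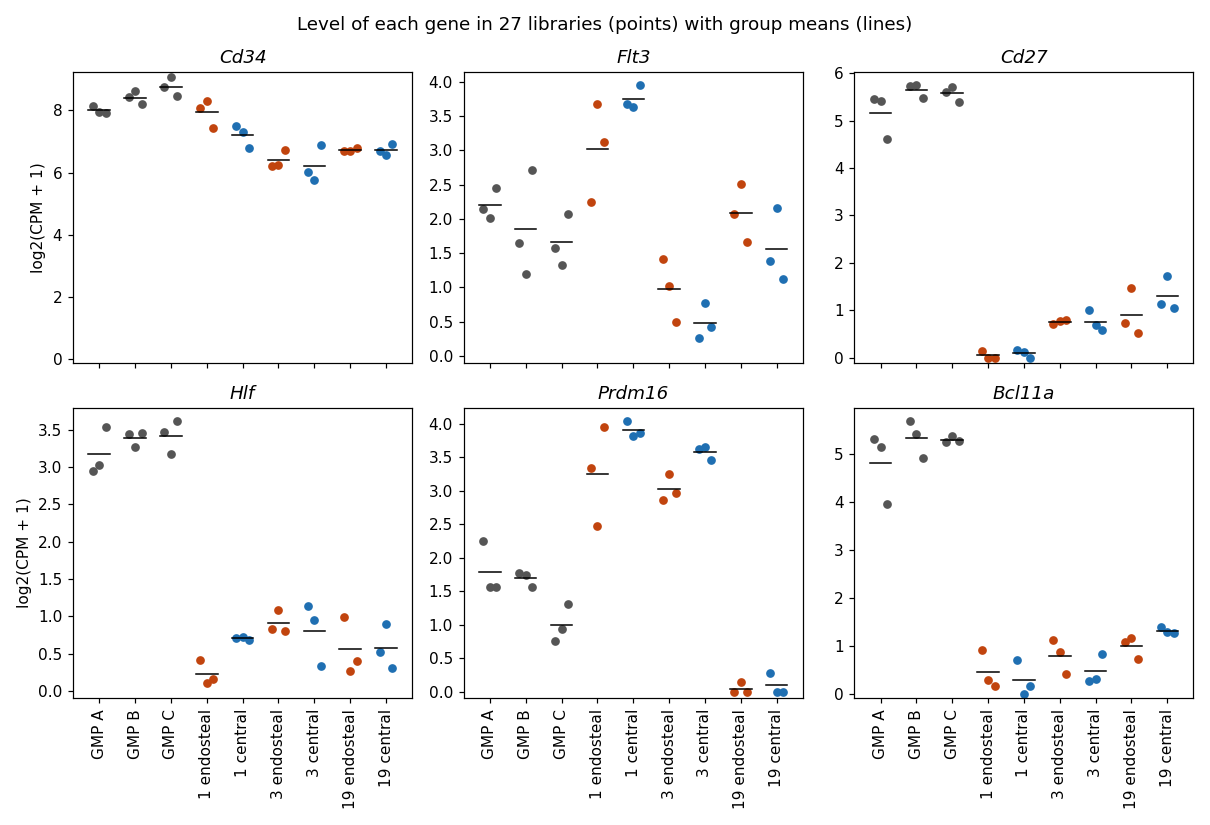
Level of each of the 6 genes in each of 27 libraries as log2(CPM + 1), with GMP sets in grey, endosteal AML in red and central AML in blue; numbers on the axis are donor batches and lines are means of 3 libraries. Cd27, Hlf and Bcl11a separate AML from GMPs, and Prdm16 is at or near 0 in batch 19 alone.

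Cd27, the gene of the CD70 receptor, was nearly lost from all 3 leukemias. It was at 43.1, 41.5 and 23.3 CPM in GMP set A, at 52.0, 52.5 and 43.2 CPM in set B and at 47.6, 51.5 and 41.2 CPM in set C. In batch 19 it was at 0.664, 1.76 and 0.432 CPM in endosteal and 1.18, 2.31 and 1.06 CPM in central cells, and in batch 3 at 0.644, 0.713 and 0.744 CPM in endosteal and 1.01, 0.621 and 0.511 CPM in central cells. In batch 1 it was at 0.11, 0 and 0 CPM in endosteal and at 0.128, 0.093 and 0 CPM in central cells. No AML library came near library 9, the GMP library with the least Cd27, and batch 1 held almost none.

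Pooled over the 7 GMP and 17 AML libraries with whole reads, GMPs held 2466 Cd27 reads and AML cells 101, a 68.6-fold higher rate in GMPs (95% exact interval of the ratio 56.2 to 84.6; this and the intervals of ratios below cover counting error only). Batch 1 gave 3 Cd27 reads in 58.05 M, so that the ratio of GMPs to batch 1 was 812 with an interval of 278 to 3942. Batch 3 (0.707 ± 0.168 CPM, mean ± SD, n = 6) did not overlap with batch 1 (0.0552 ± 0.0614 CPM, and 0.0662 without library 18), while batch 19 (1.23 ± 0.698 CPM) overlapped with batch 3. The GMP mean was 43.99 ± 9.02 CPM (n = 9) and 46.6 ± 4.92 CPM without library 9.

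Bcl11a, which encodes the repressor of fetal globin genes, separated the groups in the same way. It was at 38.8, 34.7 and 14.6 CPM in GMP set A, at 50.7, 42.2 and 29.3 CPM in set B and at 37.1, 41.0 and 37.6 CPM in set C. In batch 19 it was at 1.11, 1.25 and 0.648 CPM in endosteal and 1.61, 1.44 and 1.41 CPM in central cells, and in batch 3 at 1.16, 0.815 and 0.331 CPM in endosteal and 0.201, 0.233 and 0.767 CPM in central cells. In batch 1 it was at 0.883, 0.224 and 0.115 CPM in endosteal and at 0.639, 0 and 0.122 CPM in central cells. No AML library reached the GMP range, and library 19 of batch 1 held no Bcl11a read. Library 9 was again the lowest GMP library, and the GMP mean was 36.2 ± 9.96 CPM with it and 38.9 ± 6.20 CPM without it. Pooled reads were 2056 in GMPs and 116 in AML cells, a 49.8-fold higher rate in GMPs (41.3 to 60.6). Among the leukemias, batch 19 (1.24 ± 0.339 CPM) stood before batch 3 (0.584 ± 0.388 CPM) and batch 1 (0.331 ± 0.350 CPM), and neighbours in this order overlapped.

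Hlf, the gene of the stem cell bZIP factor, had a lower level in GMPs and was as separate. It was at 6.69, 7.15 and 10.6 CPM in GMP set A, at 9.89, 8.65 and 9.96 CPM in set B and at 10.03, 8.05 and 11.3 CPM in set C. Batch 3 was at 0.773, 1.12 and 0.744 CPM in endosteal and 1.21, 0.932 and 0.256 CPM in central cells, and batch 19 at 0.996, 0.208 and 0.324 CPM in endosteal and 0.429, 0.865 and 0.235 CPM in central cells. Batch 1 was at 0.331, 0.075 and 0.115 CPM in endosteal and 0.639, 0.648 and 0.608 CPM in central cells. Each AML library thus held some Hlf reads, and the highest of them lay below the lowest GMP library. Pooled reads were 556 in GMPs and 89 in AML cells, a 17.6-fold higher rate in GMPs (14.01 to 22.2). Batch 3 (0.839 ± 0.340 CPM), batch 19 (0.510 ± 0.338 CPM) and batch 1 (0.403 ± 0.266 CPM, and 0.468 without library 18) overlapped as neighbours in this order.

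Over all 5160 genes tested, 6.32% had all 18 AML libraries below all 9 GMP libraries, as Cd27, Bcl11a and Hlf did. The comparison was among those that chose the genes, so nothing is read from their count. In a limma fit on log2(CPM + 1), the difference of AML from GMPs was -4.81 (SE 0.13) for Cd27, -4.44 (SE 0.15) for Bcl11a and -2.70 (SE 0.12) for Hlf, a scale that understates changes of low levels. With a gene called at a Benjamini-Hochberg adjusted p under 0.05 and a log2 difference of at least 1, 12.4% of genes were lower in AML and 18.2% higher. All genes in the table had been selected by the authors on a false discovery rate, so these shares are not those of a whole transcriptome.

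Cd34 was lower in AML to a smaller degree. It was at 283, 243 and 241 CPM in GMP set A, at 340, 390 and 293 CPM in set B and at 429, 537 and 355 CPM in set C. Batch 1 was at 270, 317 and 170 CPM in endosteal and 179, 159 and 110 CPM in central cells. Batch 3 was at 73.5, 75.6 and 104 CPM in endosteal and 63.7, 53.7 and 117 CPM in central cells, and batch 19 at 103, 103 and 109 CPM in endosteal and 103, 92.9 and 119 CPM in central cells. A pair of endosteal libraries of batch 1, among them library 18 at 317 CPM, reached into the GMP range, and batches 3 and 19 lay below each GMP library.

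The difference of Cd34 from GMPs was -0.82 (SE 0.17) on the log2 scale in batch 1, -2.08 in batch 3 and -1.67 in batch 19. The pooled read rate of Cd34 was 2.28 times higher in GMPs than in AML cells (2.23 to 2.32). This pool lacked libraries 25 and 26, the GMP libraries with the most Cd34 (429 and 537 CPM). It thus understates the difference of the means over all libraries, 346 CPM in GMPs and 129 CPM in AML. By mean level the order was GMPs (346 ± 96.0 CPM), batch 1 (200.97 ± 77.2 CPM, and 178 ± 58.1 CPM without library 18), batch 19 (105 ± 8.55 CPM) and batch 3 (81.4 ± 24.5 CPM), and each pair of neighbours overlapped.

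Flt3, the gene of the FLT3 ligand receptor, was low in all libraries, and its leukemias lay on both sides of the GMP mean. GMPs were at 3.43, 3.04 and 4.47 CPM in set A, at 2.13, 1.29 and 5.56 CPM in set B and at 1.99, 1.51 and 3.19 CPM in set C. Batch 1 was at 3.75, 11.9 and 7.69 CPM in endosteal and 11.8, 11.4 and 14.6 CPM in central cells. Batch 19 was at 3.21, 4.67 and 2.16 CPM in endosteal and 1.61, 3.46 and 1.17 CPM in central cells, and batch 3 at 1.67, 1.02 and 0.413 CPM in endosteal and 0.201, 0.699 and 0.341 CPM in central cells. Of the 6 batch 1 libraries 5 lay above each GMP library, batch 19 lay within the GMP range apart from 1 library, and 1 library of batch 3 reached that range.

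The Flt3 read rate was 3.78 times higher in batch 1 than in batch 19 (3.14 to 4.57) and 13.6 times higher than in batch 3 (9.88 to 19.1). Against GMPs the log2 difference was 1.48 (SE 0.24) in batch 1, -1.17 in batch 3 and -0.09 in batch 19, so that the mean over AML (0.07, SE 0.19) describes no single batch. It ran from -0.63 when batch 1 was left out to 0.70 when batch 3 was. By mean level the order was batch 1 (10.2 ± 3.84 CPM), GMPs (2.96 ± 1.41 CPM), batch 19 (2.71 ± 1.31 CPM) and batch 3 (0.724 ± 0.549 CPM), and each pair of neighbours overlapped.

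Prdm16, the gene of the PR domain factor, was above the GMP level in batches 1 and 3 and nearly absent from batch 19. GMPs were at 3.75, 1.97 and 1.96 CPM in set A, at 2.42, 2.34 and 1.97 CPM in set B and at 0.695, 0.906 and 1.48 CPM in set C. Batch 1 was at 9.16, 4.55 and 14.6 CPM in endosteal and 15.5, 13.1 and 13.6 CPM in central cells, and batch 3 at 6.31, 8.56 and 6.86 CPM in endosteal and 11.4, 11.6 and 10.05 CPM in central cells. In batch 19, libraries 11 and 12 held 0.215 and 0.104 CPM and the other 4 were at 0. All libraries of batches 1 and 3 lay above all GMP libraries, library 18 being the lowest of them, and all GMP libraries lay above all of batch 19.

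Batch 19 gave 3 Prdm16 reads in 52.7 M, and the rate was 196 times higher in batch 1 (66.6 to 951), 157 times higher in batch 3 (53.3 to 762) and 38.9 times higher in GMPs (13.02 to 191). Batch 1 averaged 11.8 ± 4.14 CPM (13.2 ± 2.43 CPM without library 18), batch 3 9.13 ± 2.26 CPM and GMPs 1.94 ± 0.901 CPM, and batches 1 and 3 overlapped. Against GMPs the log2 difference was 2.09 (SE 0.18) in batch 1, 1.81 in batch 3 and -1.43 in batch 19. The mean over the 3 leukemias changed sign with the method, at 0.83 in limma and -0.10 in edgeR on whole reads, so no direction is given for Prdm16 in AML as a whole.

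**Figure D2:**
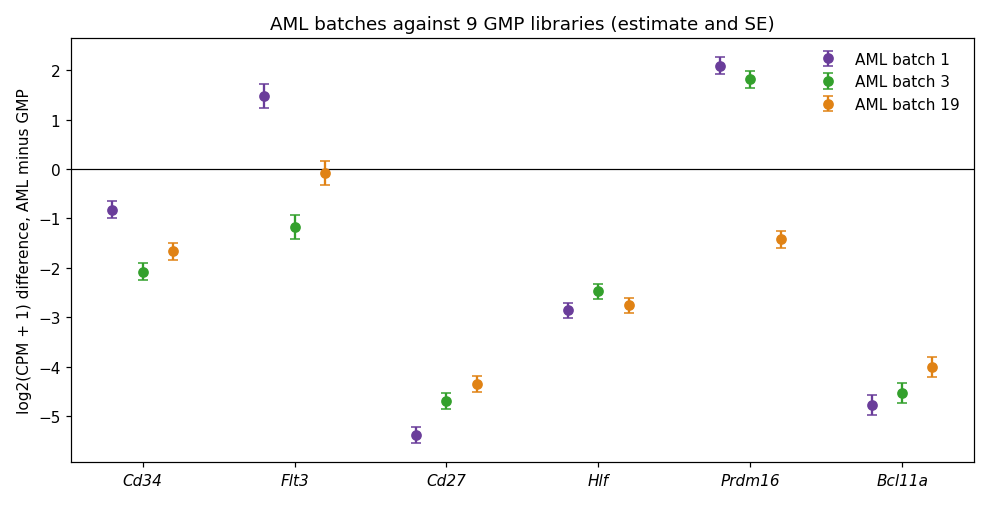
Difference of each AML donor batch from the 9 GMP libraries on the log2(CPM + 1) scale, as estimate and SE of a limma fit. Cd34, Cd27, Hlf and Bcl11a lie below 0 in each batch, while Flt3 runs from -1.17 to 1.48 and Prdm16 from -1.43 to 2.09.

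Each leukemia was also compared with the average of the remaining batches in a fit that blocked on region. Batch 1 had log2 differences of 2.11 for Flt3, 1.895 for Prdm16, 1.05 for Cd34, -0.52 for Bcl11a and -0.86 for Cd27. Batch 3 had -1.87 for Flt3, -0.84 for Cd34 and 1.48 for Prdm16, and batch 19 had -3.38 for Prdm16, 0.68 for Cd27 and 0.65 for Bcl11a. Batch 1 was thus the leukemia with more Flt3 and Cd34 and less Cd27, and batch 19 the one without Prdm16. By the call rule given above, 8.44% of 4820 genes were higher and 7.07% lower in batch 1, 3.94% and 4.09% in batch 3, and 7.05% and 6.54% in batch 19. The 3 comparisons share libraries, and they were among those that chose the genes. Markers of other cells moved with the batches as well, and their part was not tested. By the same rule, 6 of 7 eosinophil, basophil and mast cell genes tested were higher and 1 lower in batch 1. In batch 19, 1 of the 7 was higher and 4 were lower. The 10 such genes measured summed to 216 to 267 CPM in batch 1 other than library 18 (150 CPM). They summed to 78.0 to 128 CPM in batch 3 and to 235 to 286 CPM in batch 19. In batch 19 Prg2, Cpa3 and Mcpt8 averaged only 4.69, 1.35 and 9.09 CPM, so other genes of the list made up most of that sum. Of the megakaryocyte genes 2 of 2 tested were higher in batch 1, and 6 of 14 neutrophil genes were lower in batch 19. Without library 18, 5 eosinophil, basophil and mast cell genes and 1 megakaryocyte gene were higher in batch 1.

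Markers of other cells moved with these levels, and their part in them was not tested. Genes named as foremost are those with the highest mean CPM over the 27 libraries, whether or not they were called. Of 10 eosinophil, basophil and mast cell genes measured (Hdc, Prg2 and Cpa3 foremost) 9 were lower in AML, with sums of 321 to 880 CPM in GMPs and 78.0 to 286 CPM in AML. Of 4 megakaryocyte genes tested (Itga2b, Pf4 and Gp1bb foremost) 3 were lower and 1 higher, with sums of 30.3 to 135 CPM in GMPs and 2.92 to 21.8 CPM in AML other than library 18. Of 5 erythroid genes tested (Tfrc, Car2 and Car1 foremost) 3 were lower, with overlapping sums of 23.03 to 150 CPM and 14.8 to 63.7 CPM. Mature myeloid genes ran the other way. Of 14 neutrophil genes (S100a8, S100a9 and Ngp foremost) 12 were higher in AML, with sums of 71.9 to 309 CPM in GMPs and 633 to 3371 CPM in AML. Of 9 monocyte and macrophage genes (Ly6c2, Lyz2 and Mgl2 foremost) 7 were higher, with sums of 726 to 1193 and 1176 to 3540 CPM. Ly6c2 was not among the 7 (log2 difference 0.28). Mgl2 was lower in batch 1 (6.15 CPM) and higher in batches 3 and 19 (155 and 251 CPM) than in GMPs (15.9 CPM). In bulk RNA, fewer cells that express a gene and less RNA per cell cannot be told apart.

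Cd27 and Bcl11a are also known from lymphoid cells. The 5 B cell genes measured (Cd79b, Vpreb1 and Blnk foremost) summed to 13.7 to 19.1 CPM in GMPs and 12.9 to 28.2 CPM in AML, and none was called in AML against GMPs. Against the other batches, 2 were called higher and 1 lower in batch 19, 1 higher and 1 lower in batch 3, and 0 higher and 2 lower in batch 1. Among the 5, Vpreb1 (2.76 CPM in GMPs; 1.84, 2.05 and 13.7 CPM in batches 1, 3 and 19) and Igll1 (0.283 CPM; 0.0213, 0.198 and 1.99 CPM) were highest in batch 19, the leukemia with the highest mean of Cd27 and Bcl11a, while Cd79b (12.2 CPM; 16.01, 13.9 and 6.76 CPM) was lowest there. Blnk (0.472 CPM; 0.234, 3.38 and 0.854 CPM) was highest in batch 3. Of the 4 T and NK cell genes measured, Nkg7, which is on the GMP list too, was at 207 CPM in GMPs, while Gzmb was at 0.974, Trac at 0.0966 and Il7r at 0.0547 CPM there. In batch 1 Il7r was at 3.37 ± 4.77 CPM and Trac at 0.725 ± 0.810 CPM, each with an SD above its mean. There 2 of the 2 T and NK cell genes tested were higher than in the other batches (1 without library 18).

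The 4 plasmacytoid dendritic cell genes measured (Tcf4, Runx2 and Irf7 foremost) summed to 62.5 to 107 CPM in GMPs, to 223 to 321 CPM in batch 1, to 89.1 to 174 CPM in batch 3 and to 146 to 228 CPM in batch 19. Among the leukemias these ranges stood in the order of the Flt3 means, with overlap between neighbours. GMPs stood lowest in these sums and next to batch 1 in Flt3. A link of these genes to Flt3 was not tested. The defining gene Siglech was at 0.108 CPM in GMPs and at 0.0845, 0.272 and 0.719 CPM in batches 1, 3 and 19.

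Endosteal and central AML cells were compared to ask whether leukemic cells near the bone surface differ from those in the central marrow, a contrast that did not choose the genes. No member passed the test, which was limma with batch as a block. Over 4820 genes 0% were called higher and 0% lower in endosteal cells at an adjusted p under 0.05, with 223 genes at an unadjusted p under 0.05, 0 called by edgeR and 1 by DESeq2 (Smim5, named after its value was seen). The endosteal minus central difference was 0.31 for Cd34 (95% interval -0.05 to 0.66, adjusted p = 0.887 in limma) and 0.09 for Flt3 (-0.40 to 0.59, adjusted p = 0.945). It was -0.15 for Cd27 (-0.42 to 0.13, adjusted p = 0.887) and 0.06 for Bcl11a (-0.26 to 0.37, adjusted p = 0.949). The widest of these intervals, that of Flt3, allows a difference of either sign. Hlf reached 1 CPM in fewer than 3 AML libraries and was not tested.

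Prdm16 had the lowest unadjusted p of the members between regions. Its difference was -0.42 (95% interval -0.76 to -0.07), lower in endosteal cells, with an unadjusted p of 0.0206 and an adjusted p of 0.887 in limma. Over the alternative settings the difference ran from -0.60 to -0.29, the latter without library 18, and the adjusted p from 0.463 to 0.9999. In batch 3 the central libraries (10.05 to 11.6 CPM) lay above the endosteal ones (6.31 to 8.56 CPM), as for 6.89% of genes tested, and in batch 1 the ranges overlapped (13.1 to 15.5 and 4.55 to 14.6 CPM). The within-batch differences were -0.65, -0.55 and -0.05 (SE 0.27) in batches 1, 3 and 19, the last with almost no reads.

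Among the other members, central cells lay above endosteal cells for Hlf in batch 1 (0.608 to 0.648 against 0.075 to 0.331 CPM), where 3.71% of genes did so, and for Bcl11a in batch 19 (1.41 to 1.61 against 0.648 to 1.25 CPM), where 2.26% did. Both rest on few reads per library. All other combinations of gene and batch overlapped between regions, including Cd34 in batch 1 (170 to 317 CPM endosteal, 110 to 179 CPM central; difference 0.73). Over all batches the Cd34 difference was 0.22 without library 18. A region effect that differed between batches was called for 0% of 4820 genes in limma's interaction test, with 289 at an unadjusted p under 0.05 and 0 called by edgeR or DESeq2. Flt3 had differences of -0.74, 0.49 and 0.53 (SE 0.37) in batches 1, 3 and 19, with an unadjusted p of 0.0352 and an adjusted p of 0.765 in that limma test.

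**Figure D3:**
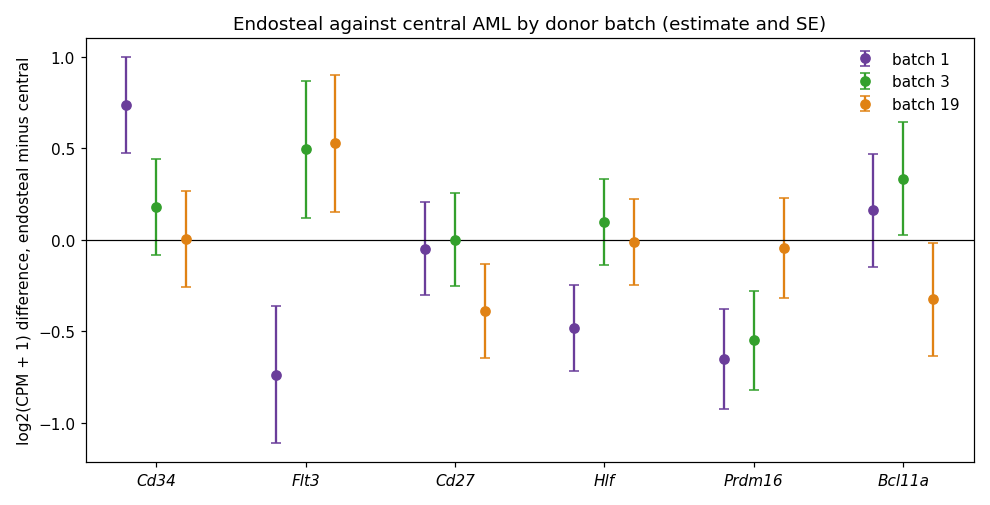
Endosteal minus central difference of each gene within each AML donor batch on the log2(CPM + 1) scale, as estimate and SE of a limma fit. Prdm16 runs from -0.65 to -0.05, and Flt3 lies below 0 in batch 1 and above 0 in the other batches.

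The GMP control sets were compared to see how far the reference level of these genes varied. Cd34 averaged 256 ± 23.8 CPM in set A, 341 ± 48.6 CPM in set B and 440 ± 91.6 CPM in set C (n = 3 each), and set A lay below both other sets without overlap, as for 4.76% of genes tested. Prdm16 averaged 2.56 ± 1.03 CPM in set A, 2.24 ± 0.241 CPM in set B and 1.03 ± 0.407 CPM in set C, and set C lay below the others without overlap, as for 2.74% of genes. In limma's F test over the sets neither passed, with adjusted p = 0.155 for Cd34 and 0.190 for Prdm16, and the other members had adjusted p from 0.368 (Cd27) to 0.740 (Hlf). Of 4345 genes 0% were called, with 939 at an unadjusted p under 0.05, 2 called by edgeR and 17 by DESeq2. The count rested on single libraries, with 857 genes called without library 27 of set C and 139 without library 24 of set B. Cd34 was called without library 27 (adjusted p = 0.0251 in limma), and its adjusted p over all alternatives ran up to 0.722.

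Genes related to the members by pathway or family were read in AML against GMPs. Of 78 tested in 11 lists, 14 were higher and 21 lower in AML, with a median log2 difference of -0.26 against 0.33 over all genes. Scaling moved this split, since TMM put the median of all genes at 0.18 and called 735 genes higher and 855 lower, and quantile normalization 708 and 863, where the deposited scale gave 939 and 641. Under either, 11 of the 78 were higher and 24 lower, and without libraries 9 and 18 there were 13 and 22.

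Of 13 transcription factors of stem and progenitor cells, 6 were lower and 3 higher (median -0.74), also under each scaling. Tal1, a master regulator of early blood formation, fell from 16.7 ± 2.23 CPM in GMPs to 0.146, 0.0953 and 0.0918 CPM in batches 1, 3 and 19 (log2 difference -3.99, SE 0.09). Tal1 resembled Cd27, Bcl11a and Hlf in being low in each leukemia. Sox4 fell by 2.19 on the log2 scale, while Meis1, a Hox cofactor of MLL-rearranged leukemia, rose from 19.3 ± 7.76 CPM to 128 ± 119, 62.0 ± 11.4 and 83.1 ± 29.7 CPM. Its AML libraries ran from 48.1 to 369 CPM, so the batch 1 mean carries a wide spread.

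Of 13 surface markers beside Cd34, 6 were lower and 1 higher (median -0.93), and 7 were lower under TMM or quantile scaling. Eng, the TGF-β coreceptor endoglin, fell by 3.75 on the log2 scale, the adhesion receptor genes Adgrl4 and Adgrg1 fell by 2.56 and 1.85, and Kit, the stem cell factor receptor gene, fell by 1.59. In batch 1 against the other batches, 4 of 9 surface markers tested were higher and 0 lower (Adgrg1, Adgrl4, Cd93 and Cd244), as were 3 of 10 transcription factors (Gfi1b, Erg and Ikzf2; 2 without library 18), all named after their values were seen, beside 8.44% higher and 7.07% lower over all genes.

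The partners of the receptors moved in both directions. Of the class III receptor tyrosine kinases beside Flt3, Kit was lower and Pdgfrb had a log2 difference of 0.64. Of 10 genes of FLT3 signaling 2 were higher and 2 lower (1 and 2 under TMM). The kinase gene Pim1 fell from 156 ± 86.9 CPM in GMPs to 28.0, 24.7 and 15.3 CPM in batches 1, 3 and 19, and Fyn fell by 1.70 on the log2 scale, while the adaptor genes Sla and Sh2b3 had 1.33 and 1.07. Flt3 itself followed neither direction.

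Of 5 genes downstream of CD27, Traf5, which encodes an adaptor that binds CD27, was higher, at 1.03 ± 0.976 CPM in GMPs and 3.56, 3.83 and 2.47 CPM in the batches, while Birc3 had -0.86, Traf3 0.53 and Map3k14 0.53 (1 of the 5 higher and 1 lower under TMM). Of 9 other genes of the TNF receptor family 3 were higher and 0 lower, namely Tnfrsf23 (1.64), the death receptor gene Fas (1.24) and Tnfrsf18 (1.05), and Tnfrsf11a had 0.95. Under TMM 2 were higher, and under quantile normalization 2 were higher and 1 lower. On the deposited scale none of these relatives was called lower in AML. Of 8 cytokine receptor genes 2 were higher and 3 lower. The GM-CSF receptor gene Csf2ra rose from 10.6 ± 3.05 CPM to 38.4, 72.8 and 82.7 CPM and Csf2rb2 by 1.51 on the log2 scale, while Il1rl1 (-1.27), Il6st (-1.05) and Il1r1 (-1.01) were lower.

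Among relatives and partners of the transcription factors, Bcl11b, the paralog of Bcl11a known from T cells, ran opposite to it, and was highest in batch 1 as were Il7r and Trac. Bcl11b was at 0.0368 ± 0.0553 CPM in GMPs and at 14.6, 1.56 and 3.503 CPM in batches 1, 3 and 19 (log2 difference 2.38). Of 10 corepressor genes 1, Bcl11b, was higher and 2 lower. Kdm1a, the histone demethylase LSD1, fell by 1.55 on the log2 scale and Skil by 1.2. Mecom, the closest relative of Prdm16, was at 0.866 ± 0.425 CPM in GMPs and listed at 0 in all 18 AML libraries. Prdm9 (0.89) and Prdm11 (-0.29) were not called. Batches 1 and 3 thus held Prdm16 without Mecom.

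Of 8 genes of lymphoid priming 1 was higher and 1 lower, against 0 and 2 under TMM or without libraries 9 and 18. Irf8 had -1.28, Tcf4 1.02 and Mef2c -0.88. Emcn, the sialomucin gene measured beside Cd34, was at 0.791 ± 0.428 CPM in GMPs and at 0.0203, 0 and 0 CPM in the batch means (log2 difference -0.79, not called).

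**Figure D4:**
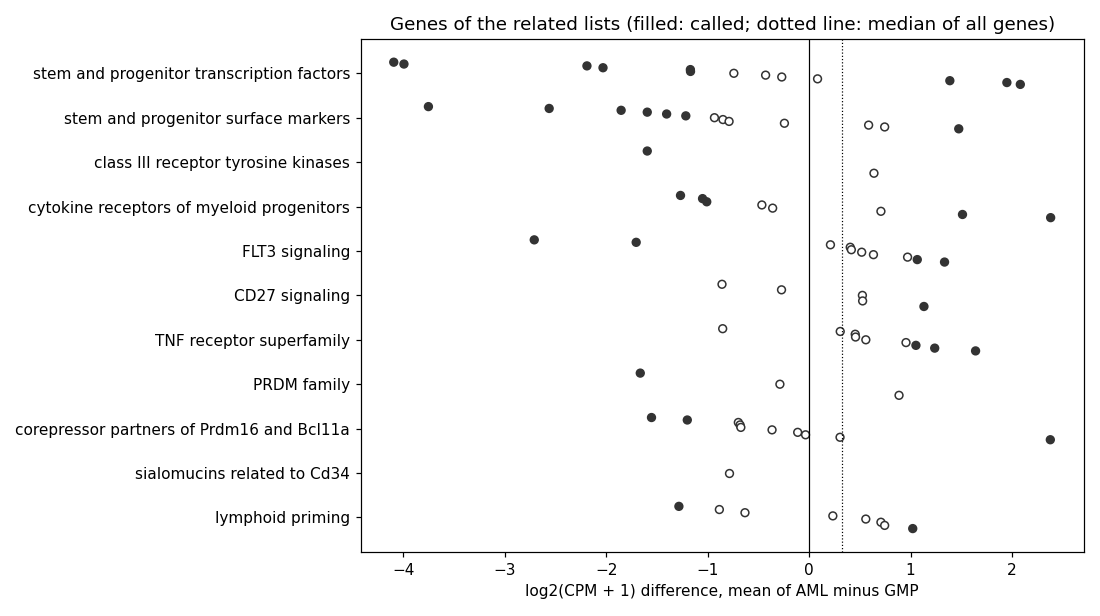
Log2(CPM + 1) difference of AML from GMPs for each tested gene of the related lists, 1 point per gene, filled where the adjusted p was under 0.05 and the difference at least 1 in size; the dotted line is the median of all genes (0.33). Stem and progenitor factors and surface markers lie mostly left of the dotted line, and the receptor pathways lie on both sides of it.

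The genes with the most similar profiles were found by the root mean square (RMS) difference of log2(CPM + 1), each gene centred on its own mean. Over all 27 libraries Cd27 and Bcl11a were nearest to each other, with an RMS difference of 0.37 where the RMS spread of Cd27 itself was 2.31. Ctla2a (0.54) and Tmem176a (0.54) followed for Cd27, and Arhgap32 (0.39) and Tmem176a (0.45) for Bcl11a, all high in GMPs and low in each leukemia. Hlf was nearest to Sdsl (0.36), Slc18a2 (0.37) and Mdfi (0.37), and Cd34 to Csad (0.40), Ktn1 (0.40) and Emid1 (0.41). Prdm16 was nearest to Prss16 (0.63), Stxbp6 (0.65) and Rabgap1l (0.66), each lower in batch 19 than in the other batches. Rabgap1l was at 43.02, 51.7 and 5.92 CPM in batches 1, 3 and 19 and at 24.8 CPM in GMPs. Flt3 was nearest to Gm15910 (0.62), Ift57 (0.66) and Jag2 (0.66), each with its highest mean in batch 1. The RMS spread was 2.14 for Bcl11a, 1.41 for Prdm16, 1.30 for Hlf, 1.01 for Flt3 and 0.91 for Cd34. Against their spread, Flt3, Prdm16 and Cd34 were thus matched less closely than Cd27 and Bcl11a.

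Within the 18 AML libraries alone, Prdm16 had the same 3 nearest genes, in the order Rabgap1l (0.56), Stxbp6 (0.62) and Prss16 (0.69). Flt3 was nearest to the basophil protease gene Mcpt8 (0.48), Msi2 (0.49) and Bcl11b (0.52), each with its highest AML mean in batch 1. Cd34 was nearest to the histone genes Hist1h2be (0.23) and Hist1h4j (0.27) and to Cbfa2t3 (0.28). Cd27 was nearest to Tspan7 (0.24), Zfp607b (0.26) and Gm11837 (0.27), and Bcl11a to Slc22a18 (0.23), Ncam1 (0.25) and D030055H07Rik (0.25). Within AML the RMS spread was 1.64 for Prdm16, 1.19 for Flt3, 0.64 for Cd34, 0.50 for Cd27 and 0.44 for Bcl11a. At the AML levels of Cd27 and Bcl11a single reads shape the profile, and Hlf did not pass the filter there.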

How the data were processed

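RNA of 18 AML and 9 GMP libraries was sequenced with a QuantSeq 3′ kit. The authors demultiplexed with CASAVA, trimmed with Cutadapt 1.9, mapped to mm10 with HISAT2, counted with featureCounts and tested with voom and limma. The deposited table held CPM values, read counts scaled by the authors to 1000000 reads per library, of 27 libraries for 5486 genes. The authors' columns of group differences, mean expression and FDR (an adjusted p-value, below 0.05 for each gene, of a contrast not named) were not used in any test. The table held 22.0 to 28.3% of each library's reads.

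Columns matched groups, not single samples. Values entered limma 3.58.1 on the log2(CPM + 1) scale (R 4.3.3, trended variance, two-sided, Benjamini-Hochberg) over genes at 1 CPM or more in at least 3 libraries of each fit. Whole reads were recovered from the CPM step in 24 libraries (100% of values up to 200 reads within 0.1 read) and tested with edgeR 4.0.16 and DESeq2 1.42.0 as alternatives. Other alternatives were the pseudocount, the filter, TMM and quantile scaling, 1 region or batch at a time, and leaving out each library; leaving out libraries 9 and 18 together was chosen after seeing the data. Fits were tested on simulated data. Ratios of pooled reads carry exact 95% intervals. Promoter sequences came from RefSeq (GRCm38.p6) and gene positions from Gencode M21 (mm10).

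The members and gene lists were chosen with earlier results of these data known. Genes were named by rule: all members; of each pathway list up to 4 with the largest AML against GMP difference, or all measured genes of lists of 4 or fewer; up to 3 markers per cell type by mean CPM; and 3 nearest profiles per member. Genes of the lists outside the table were not analysed here, and some that the rule names are not reported here.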

Additional observations from a re-analysis of the deposited data

Results flagged for a closer look

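Cd27 in GMP library 9 was at 23.3 CPM, far below the other 8 GMP libraries (41.2 to 52.5 CPM), the gap to the nearest of them being large against the range of the group. Library 9 was also the GMP library with most genes at 0 (747) and the highest sum of erythroid genes (150 CPM, of which Tfrc was 137 CPM). Whether these belong together was not tested. Cd27 in endosteal AML library 12 of batch 19 was at 1.76 CPM, above the other 8 endosteal AML libraries, which ran from 0 to 0.744 CPM. These were 2 of 36 combinations of gene and set of libraries looked at, and chance alone flags about 1 in 20 groups drawn from 1 normal population. The endosteal set is no such group, since it pools 3 leukemias with Cd27 means of 0.0552, 0.707 and 1.23 CPM (batches 1, 3 and 19). Within batch 19 no library was flagged for Cd27, and library 13 was higher than library 12, at 2.31 CPM.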

How the results depend on the processing

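Cd34, Cd27, Hlf and Bcl11a stayed lower in AML under each alternative, while the mean of Flt3 and of Prdm16 over AML changed sign. Prdm16 ran from -0.19 (DESeq2) to 1.95 (without batch 19), against 0.83. No member was called between regions or in the interaction under any alternative. The region count was 0 and became 1 with DESeq2. For the GMP sets it was 0 and became 8 with a pseudocount of 3, 2 with edgeR and 17 with DESeq2, and ran from 0 to 857 when single libraries were left out (857 without library 27, 139 without library 24, 2 without library 25 and 1 without library 23). With a pseudocount of 3 the calls fell from 1580 to 894 in AML against GMPs, from 748 to 429 in batch 1, from 387 to 192 in batch 3 and from 655 to 364 in batch 19. With edgeR and DESeq2 they were 1204 and 1231 in batch 1, 653 and 711 in batch 3, and 1111 and 1133 in batch 19, and in endosteal libraries alone batch 3 had 190, with fewer samples. For the other changes the cause was not tested. No paired analysis was possible because no label says which endosteal and central libraries of a batch share a mouse. Below about 1 CPM, single reads decide a value.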
